A study of Arabidopsis thaliana with 6 samples.

Results

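The regions described here are 369 stretches of the Arabidopsis thaliana genome, each the first 500 bases past the annotated 3′ end of a transcript, that held reads in cpsf30-1 seedlings and almost none in nerd-1 or wild-type (WT) seedlings. They were chosen from 31109 such windows, 1 per gene, as those with at least 10 counts in each of the 2 cpsf30-1 libraries and a summed count of 12 or less over the 2 nerd-1 and 2 WT libraries, and they make up 1.19% of all windows. The choice therefore used the counts of all 6 libraries, so every difference between cpsf30-1 and the other genotypes inside these windows is given as a description, and no test of these windows in those contrasts is used. The windows were not silent outside cpsf30-1: 14 of the 369 had no count in any nerd-1 or WT library, and the other windows held 1 to 12 counts over those 4 libraries, so that "almost only in cpsf30-1" describes them better than "only".

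The plants were 9-day-old seedlings of the Col-0 ecotype in 3 genotypes with 2 libraries each: cpsf30-1, nerd-1 and WT. All 3 share the ecotype, age and tissue, and the labels name no other allele or treatment. The cpsf30-1 and nerd-1 genotypes are each given as 1 named line, so nothing here separates the allele from the line that carries it. Polyadenylated RNA was sequenced with a kit that keeps strand, whereas the strand used for counting is not given in the sources used here, and nothing says that replicates came from separate cultures, so that p-values measure only the spread between these libraries.

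CPSF30 is a zinc-finger subunit of the cleavage and polyadenylation specificity factor, the complex that reads the poly(A) signal in the nascent RNA and directs where the transcript is cut and given its poly(A) tail. In plants the gene also makes a longer protein with a YTH domain, a fold that binds N6-methyladenosine in RNA. Arabidopsis plants without CPSF30 are known to use poly(A) sites different from those of the wild type in many genes. NERD is an Arabidopsis protein with a plant homeodomain finger, known from RNA-directed chromatin silencing. Reads past an annotated end can come from transcripts cut further downstream, from an unannotated later exon, or from a neighbouring gene. A count can also reflect how reads were assigned to windows. These sources cannot be told apart by a count in a window.

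Window totals over all genes were 9946225 and 10991860 counts in the cpsf30-1 libraries, 9513386 and 9474026 in the nerd-1 libraries, and 8483983 and 13250798 in the WT libraries. A count of 0 allows up to 3 counts, which is 0.226 to 0.354 CPM depending on the library, CPM being the count scaled to library size; this limit covers counting error only. The window past the first CPSF30 transcript had 4 and 16 counts in cpsf30-1, 3 and 4 in nerd-1 and 4 and 2 in WT. In the window past the second CPSF30 transcript there were 1 and 0 counts in cpsf30-1, against 66 and 58 in nerd-1 and 43 and 49 in WT. The window past the NERD transcript had 3 and 0 counts in cpsf30-1, 0 and 0 in nerd-1 and 0 and 0 in WT, and a window past the end checks nothing about that mutation. In bulk seedlings, fewer cells of a type and less RNA per cell cannot be told apart.

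The sequences at the annotated ends show what lies on each side of the count boundary. The runs below give the last 15 transcript bases in lower case and the first 15 window bases in capitals, on the transcript strand, from the RefSeq TAIR10.1 assembly. They are shown for windows that hold no other annotated gene and on which the results turn, with the end of RBCS2B, the gene just upstream of RBCS3B, for comparison.
TGG1: atctcacatccatagTATGCATATAATTTA
GLDP2: ttattgtttcattttATAATTAGGAAATTT
SEX1: taattttcttttaagCTTTGACACACGACC
CP1: gaatccaaatatatcAACCCCATAAATCAC
ATX1: gaccaaagtcaaaacAATTCATGTTCTTTG
F3H: gcattaatacttcaaCTCCTCTCTATTCAG
RBCS3B: aagtaaatttactttATAAGGACTGTGAAG
RBCS2B: aaactctaataaaaaAAGAAAAACTTGCTA
The windows that begin with these capitals lie at chr5:9078952-9079451 for TGG1 on the minus strand, chr2:11108503-11109002 for GLDP2 on the minus strand, chr1:3580330-3580829 for SEX1 on the minus strand and chr5:20071683-20072182 for CP1 on the plus strand. Those of ATX1 and RBCS3B lie at chr1:24685614-24686113 and chr5:15376673-15377172, both on the minus strand, and that of F3H at chr3:19026873-19027372 on the plus strand. The positions were rebuilt from the reference gene models and can differ from the submitters' windows where their transcript ends differ.

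Over the 369 windows the cpsf30-1 libraries held 10867 and 10004 counts, against 773 and 564 in the nerd-1 libraries and 513 and 676 in the WT libraries. These sums were 0.109% and 0.091% of the cpsf30-1 libraries, and 0.0051% to 0.00813% of the nerd-1 and WT libraries. The median window had 20 and 19 counts in cpsf30-1, 2 and 1 in nerd-1, and 1 and 2 in WT. Most of the windows are thus shallow: 241 had a summed cpsf30-1 count under 50, and 31 had 100 or more. The mean cpsf30-1 level ran from 0.971 to 62.6 CPM with a median of 1.94 CPM. The 2 cpsf30-1 libraries were within 2-fold of each other in CPM for 314 of the 369 windows (85.1%). Replicate 1 was higher by more in 32 windows and replicate 2 in 23.

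Among the windows with no other annotated gene on either strand, the highest lay past JAL31 (AT3G16430), a jacalin-related lectin, with 296 and 98 counts in cpsf30-1, 0 and 0 in nerd-1 and 0 and 3 in WT. The window past its neighbour AT3G16432 had 296 and 97 counts in cpsf30-1, 0 and 0 in nerd-1 and 0 and 3 in WT. The windows of these 2 genes do not overlap in the reference, yet their counts differ by 1 in the 6 libraries together, so they carry the same information and cannot be taken as separate. The cpsf30-1 replicates were also far apart there, at 19.3 ± 14.2 CPM (SD, n = 2).

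TGG1, a myrosinase that hydrolyses glucosinolates, had 113 and 95 counts past its end in cpsf30-1, 2 and 3 in nerd-1, and 3 and 1 in WT. In CPM this was 10.1 ± 1.55 in cpsf30-1, 0.26 ± 0.0852 in nerd-1 and 0.213 ± 0.192 in WT (SD, n = 2 each). Both cpsf30-1 libraries stood far above the other 4, which did not separate by genotype. The window past CP1, which encodes a calcium-binding protein, had 68 and 70 counts in cpsf30-1, 0 and 3 in nerd-1, and 2 and 0 in WT, with the cpsf30-1 libraries nearly equal.

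The window past AT4G22240, a plastid-lipid-associated protein of the fibrillin family, had 85 and 90 counts in cpsf30-1, 6 and 2 in nerd-1, and 0 and 0 in WT. The one past SEX1, the glucan water dikinase that starts the breakdown of leaf starch, had 87 and 70 in cpsf30-1, 3 and 3 in nerd-1, and 1 and 1 in WT. AT1G79600, an ABC1-type kinase of plastoglobules, had 77 and 47 in cpsf30-1, 4 and 4 in nerd-1, and 0 and 2 in WT. In all 3 windows the cpsf30-1 libraries exceeded the others by more than the gap between the replicates.

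The window past ATX1, a copper chaperone, had 73 and 49 counts in cpsf30-1 and 0 in each of the nerd-1 and WT libraries. Those past AT1G30390, an uncharacterized protein, had 64 and 60 counts in cpsf30-1, 2 and 0 in nerd-1, and 4 and 6 in WT. AT3G45660, a transporter of the major facilitator superfamily, had 61 and 52 in cpsf30-1, 2 and 3 in nerd-1, and 0 and 4 in WT. SQE3, a squalene epoxidase of sterol synthesis, was the least even of these windows, with 16 and 114 counts in cpsf30-1, 3 and 2 in nerd-1, and 2 and 0 in WT, so that its level rests mainly on cpsf30-1 replicate 2.

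**Figure D1:**
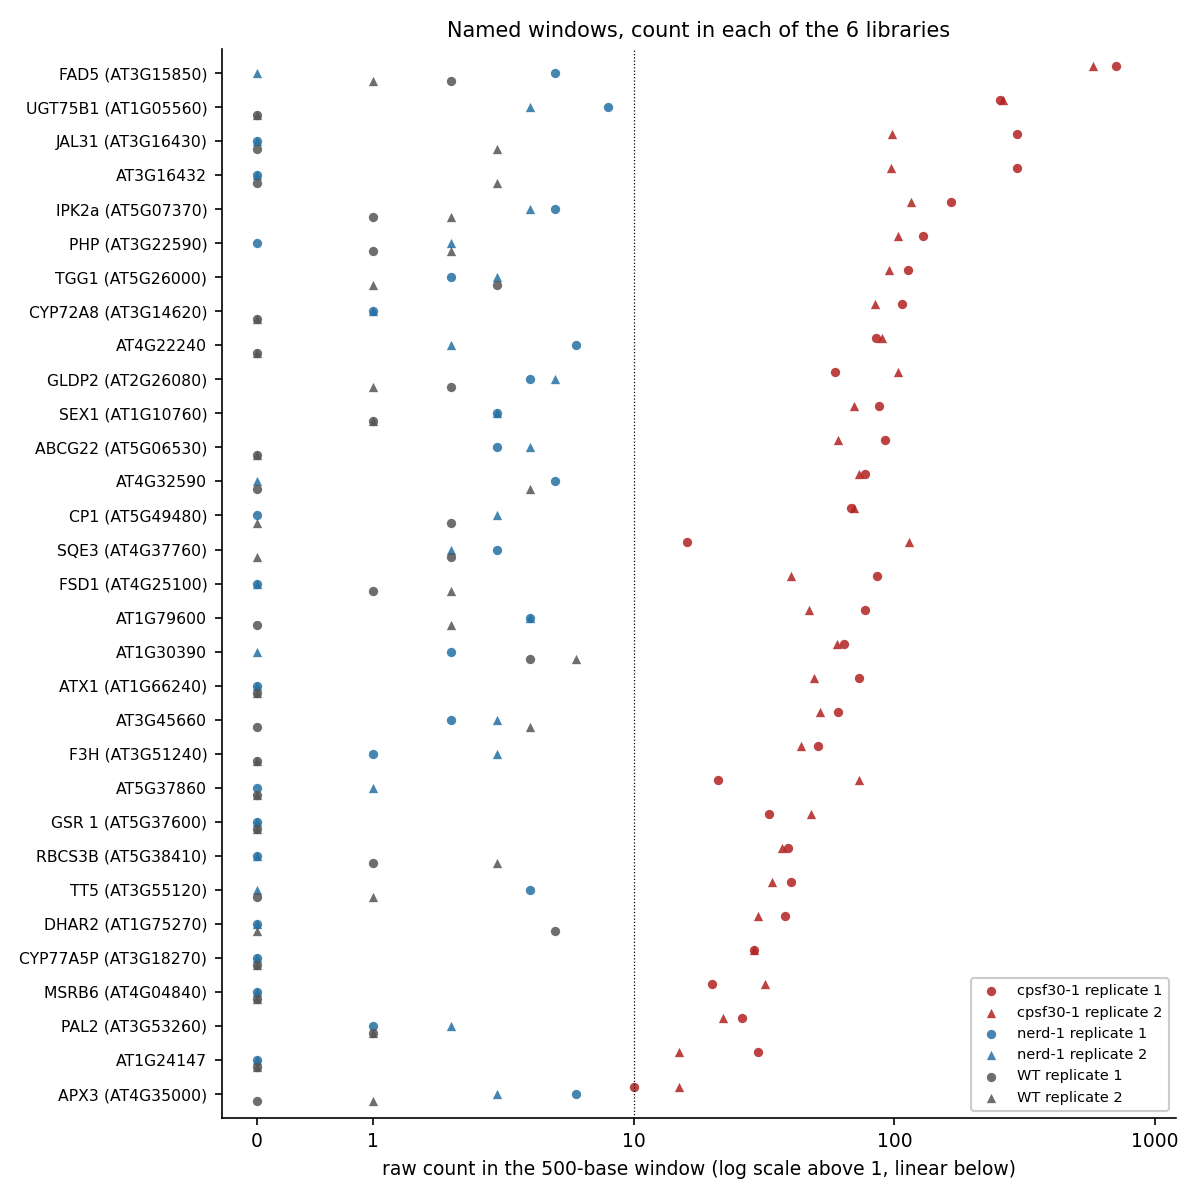
Raw count in the 500-base window of each named gene in the 6 libraries, on an axis that is logarithmic above 1; colours mark cpsf30-1, nerd-1 and WT, circles replicate 1, triangles replicate 2, and the dotted line 10 counts. The separation of the colours is set by the rule; SQE3, with 16 and 114 counts in cpsf30-1, shows the widest ratio between the cpsf30-1 replicates among the windows drawn.

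The strongest window of all lay past FAD5, a plastid desaturase that acts on the palmitic acid of monogalactosyldiacylglycerol, with 708 and 578 counts in cpsf30-1, 5 and 0 in nerd-1, and 2 and 1 in WT. Its mean level was 62.6 ± 10.8 CPM in cpsf30-1, 0.25 ± 0.354 in nerd-1 and 0.155 ± 0.11 in WT (SD, n = 2 each). This window overlaps AT3G15860 on the other strand, as the next 3 overlap other genes on the strand opposite to their own. UGT75B1, a glucosyltransferase, had 255 and 262 counts in cpsf30-1, 8 and 4 in nerd-1, and 0 and 0 in WT. PHP, the plant homologue of parafibromin and a subunit of the Paf1 transcription elongation complex, had 129 and 103 in cpsf30-1, 0 and 2 in nerd-1, and 1 and 2 in WT. AT5G37860, of the heavy-metal transport superfamily, had 21 and 73 in cpsf30-1, 0 and 1 in nerd-1, and 0 and 0 in WT. Without the counting strand, reads from these genes and from their opposite neighbours cannot be told apart.

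Where another gene lay in the window on the same strand, IPK2a, an inositol polyphosphate kinase, led with 165 and 116 counts in cpsf30-1, 5 and 4 in nerd-1, and 1 and 2 in WT. CYP72A8, a cytochrome P450, had 107 and 84 in cpsf30-1, 1 and 1 in nerd-1, and 0 and 0 in WT. ABCG22, an ABC transporter known from stomatal regulation, had 92 and 61 in cpsf30-1, 3 and 4 in nerd-1, and 0 and 0 in WT. AT4G32590, a ferredoxin-like protein, had 77 and 73 in cpsf30-1, 5 and 0 in nerd-1, and 0 and 4 in WT. In these windows a change of the gene downstream would give the same counts as transcripts of the gene upstream that run on.

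Apart from ATX1, the highest windows with no count in any nerd-1 or WT library lay past GSR 1 (AT5G37600), a cytosolic glutamine synthetase, with 33 and 48 counts in cpsf30-1, and past the pseudogene CYP77A5P, with 29 and 29. MSRB6, a methionine sulfoxide reductase, had 20 and 32 and AT1G24147, an uncharacterized protein, had 30 and 15. GSR2 (AT1G66200), the paralogue of GSR 1, was also among the 369 windows, with 21 and 20 counts in cpsf30-1, 0 and 0 in nerd-1, and 1 and 1 in WT; it was named after its values were seen, and reads of near-identical copies may have been split by the submitters' counting.

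Other genes, also named after their values were seen, share a role with one named above or with each other. ELF7, another Paf1 complex subunit, was among the windows alongside PHP, with 46 and 24 counts in cpsf30-1, 0 and 5 in nerd-1 and 2 and 5 in WT. SAP130a, annotated with a CPSF A subunit domain and known as a subunit of the SF3b splicing complex, had 40 and 35 in cpsf30-1, 4 and 0 in nerd-1 and 2 and 5 in WT. Its near-identical neighbour SAP130b was over the ceiling but also higher in cpsf30-1, with 59 and 45 counts there, 5 and 10 in nerd-1 and 2 and 8 in WT. Reads of the pair may have been split. Of the abscisic acid pathway, the windows held those of the phosphatases ABI2, with 26 and 28 counts in cpsf30-1, 3 and 2 in nerd-1 and 0 and 3 in WT, and HAB1, with 21 and 35 in cpsf30-1, 0 and 1 in nerd-1 and 0 and 1 in WT. They also held that of the receptor PYL4, with 12 and 24 in cpsf30-1, 0 and 2 in nerd-1 and 3 and 2 in WT. Of the methyl cycle, they held the S-adenosylhomocysteine hydrolases HOG1, with 10 and 25 counts in cpsf30-1, 0 and 0 in nerd-1 and 1 and 0 in WT, and SAHH2, with 22 and 20 in cpsf30-1, 2 and 0 in nerd-1 and 0 and 0 in WT. No list of these pathways was drawn up, so their presence is a description.

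The same rule was also applied with the genotypes exchanged. It used the same raw counts as the choice itself, from libraries with unlike totals, so the numbers are a description and not a separate test. With nerd-1 in the place of cpsf30-1, 16 windows met the rule, and with WT 4 did, against 369 for cpsf30-1. At a minimum of 20 counts in each library, 132 windows remained for cpsf30-1 and 0 for either nerd-1 or WT. Of the 16 nerd-1 windows, 9 held 17 and 34 counts in nerd-1 and lay in a run of 76 kb on chromosome 3, and another window in the same run, past AT3G29970, had 19 and 36, so these windows cannot be taken as separate. Of the 4 WT windows, the one past AT1G29100 had 1487 and 14 counts in WT, against 8 and 3 in cpsf30-1 and 1 and 0 in nerd-1. Among the 369 cpsf30-1 windows, 2 had the same count in all 6 libraries, those past AT4G14620 and AT4G14622, and 8 pairs of windows overlapped in position.

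**Figure D2:**
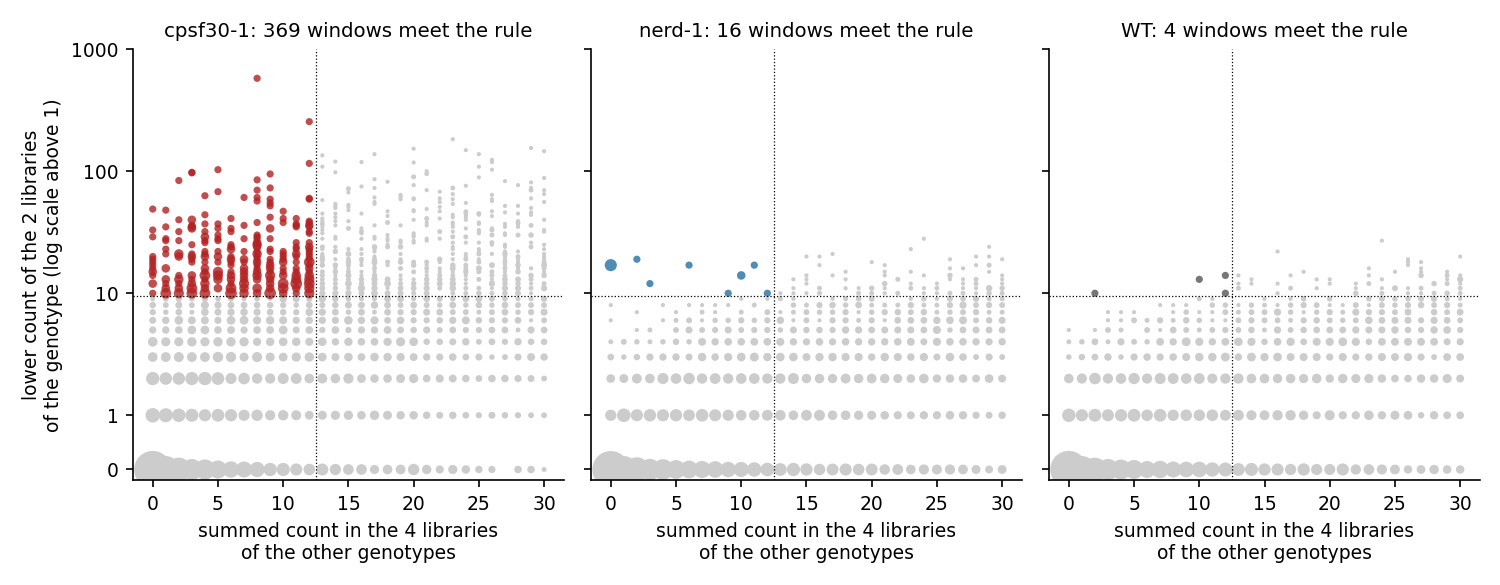
For each genotype, every window with a summed count of 30 or less in the 4 libraries of the other genotypes (x axis) against the lower of its 2 counts in the named genotype (y axis, logarithmic above 1); point area grows with the number of windows at the same values, coloured points meet the rule and dotted lines mark its limits. The coloured points number 369 for cpsf30-1, 16 for nerd-1 and 4 for WT.

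Choosing windows in the replicate 1 libraries alone leaves the replicate 2 libraries unused. With a ceiling of 6 counts over the nerd-1 and WT libraries and at least 10 in cpsf30-1, 855 windows were chosen in replicate 1, and in replicate 2 their median count was 10 in cpsf30-1, 2 in nerd-1 and 2 in WT. In that unused replicate the cpsf30-1 count was above both others in 77.3% of them, against 26.2% of all windows, and 32.4% met the same rule again. Of 834 windows chosen in replicate 2, the medians in replicate 1 were 10 in cpsf30-1, 2 in nerd-1 and 1 in WT, the cpsf30-1 count was above both in 73.1%, against 35.4% of all windows, and 33.2% met the rule again. The cpsf30-1 count was 0 in the unused replicate for 43 and 88 of the windows chosen. Among all windows it was 0 for 33.8% in replicate 2 and 32.4% in replicate 1, and such windows cannot stand above both others. The shares of all windows are therefore not matched in read level to those of the windows chosen. With nerd-1 in the place of cpsf30-1, 12 of 236 windows (5.08%) chosen in replicate 1 met the rule again in replicate 2, and 12 of 59 (20.3%) the other way round; with WT, 1 of 89 (1.12%) and 1 of 245 (0.408%) did.

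**Figure D3:**
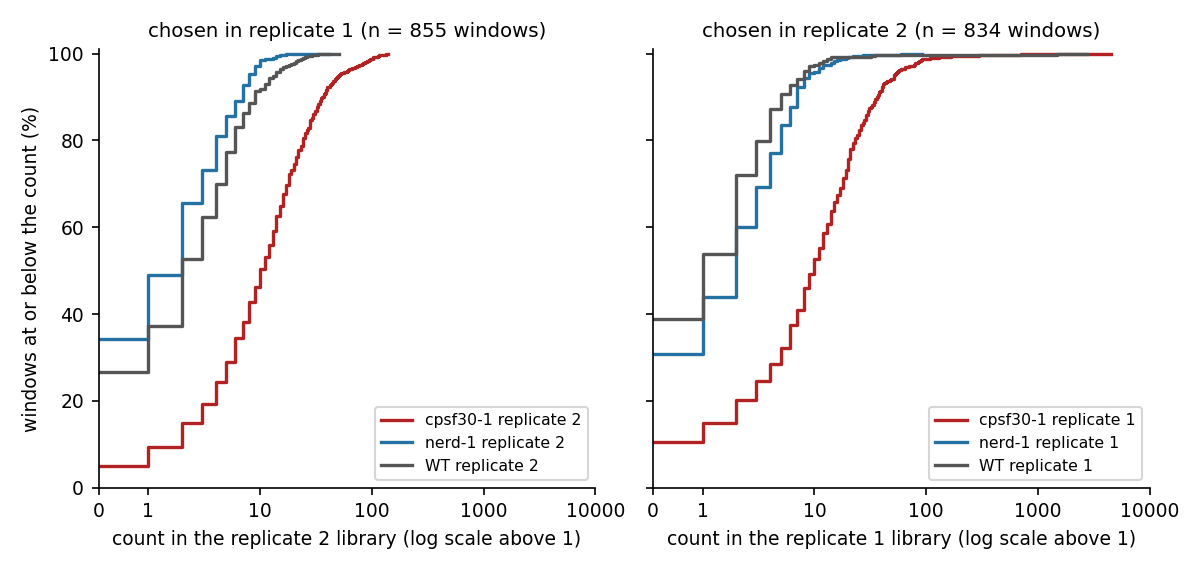
Cumulative share of windows (y axis, percent) at or below a given count (x axis, logarithmic above 1) in the replicate that did not choose them, for cpsf30-1, nerd-1 and WT. In both panels the cpsf30-1 curve lies to the right, with a median of 10 counts against 1 or 2 in the nerd-1 and WT libraries.

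Between nerd-1 and WT the rule kept both genotypes low, so their counts inside these windows are given with no test. The nerd-1 sum was above the WT sum in 187 windows, below it in 143 and equal in 39, with median levels of 0.157 CPM in nerd-1 and 0.135 CPM in WT. Both medians lie under the level that a count of 0 allows, so a single window at these levels could not show a difference at this depth. A shift over the windows together was not tested. A filter on low counts, which these windows could pass through their cpsf30-1 counts alone, left 307 of the 369 in the fit across all windows, and 62 did not enter it.

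The position of the windows was described by the annotated genes inside them. Of the 366 windows with a position, 204 (55.7%) held no other annotated gene, 72 (19.7%) held a gene on the other strand only, and 90 (24.6%) held a gene on the same strand. Among all 30620 windows with a position the shares were 45.8%, 31.5% and 22.7% in the same order, and among the 14086 that passed the count filter they were 14.5%, 51% and 34.5%. A low ceiling in nerd-1 and WT by itself leaves out windows that hold transcribed neighbours, so these shares follow in part from the rule. The median cpsf30-1 level was 1.79 CPM in windows with no other gene, 1.94 CPM in those with a gene on the other strand and 2.28 CPM where a gene lay on the same strand.

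**Figure D4:**
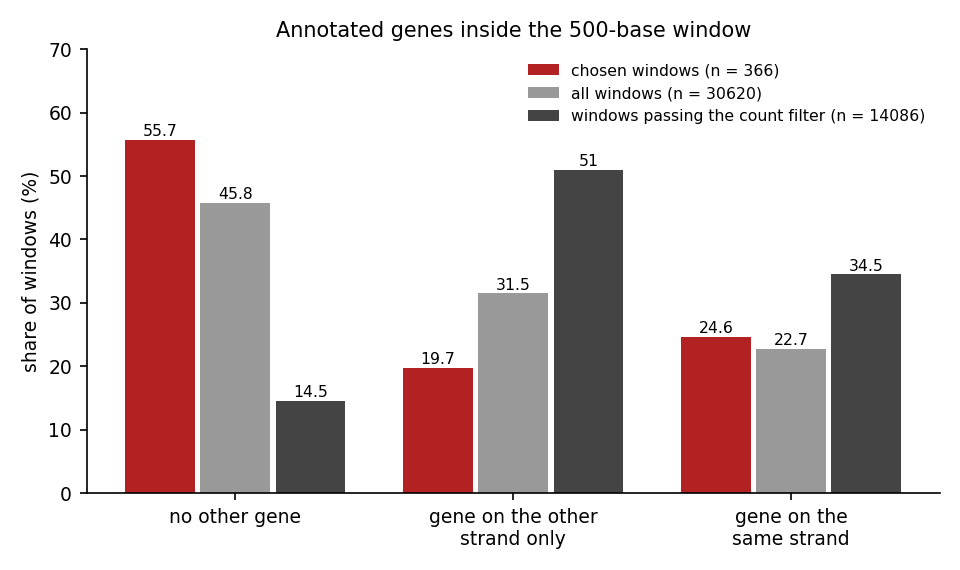
Share of windows (y axis, percent) that hold no other annotated gene, a gene on the other strand only, or a gene on the same strand, for the chosen windows, all windows with a position and the windows that passed the count filter. Windows with no other gene were 55.7% of the chosen windows, 45.8% of all and 14.5% of those passing the filter.

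The genes before these windows were nearly all protein-coding, 360 of 366 (98.4%), the same share as among windows that passed the count filter and above the 87.2% of all windows. The other 6 were pseudogenes. Their median length was 2302 bases, against 2291 for windows that passed the filter and 2103 for all. They were spread over all 5 chromosomes, from 1.1% of the windows of chromosomes 1 and 3 to 1.36% of those of chromosome 4.

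The hexamer AATAAA, the canonical poly(A) signal, was sought as an exact match on each strand. On the transcript strand it was in the last 50 transcript bases of 7.92% of the chosen windows' genes and of 8.66% of all. It was in the 500 window bases of 42.6% of the chosen windows and of 45% of all on the transcript strand, and of 50.3% of the chosen windows and 45.1% of all on the other strand. Among windows with no other gene, which were more frequent in the chosen set, the shares were 42.6% of the chosen windows and 52.7% of all on the transcript strand, and 54.9% of the chosen windows and 57% of all on the other strand. Of the windows that passed the count filter, 38.4% held it on the transcript strand and 35.1% on the other strand. The order thus turned with the windows compared on both strands, and none of these shares was tested. TGTA, a motif of plant far-upstream elements, was in the last 50 bases of 21.6% of the genes of the chosen windows and of 25% of all, and of 24.5% and 24.6% in the same order among windows with no other gene, with overlaps between motifs not removed. The windows were 33.5% T and 32.8% A, against 32.9% T and 32.7% A in all windows.

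Within windows that do hold the signal it can lie far from the annotated end. The first match on the transcript strand began 410 bases past the end of GLDP2 and 426 bases past the end of SEX1, shown with 12 bases on each side and the hexamer in capitals.
GLDP2 window: atagtgaaaaaaAATAAAggtaggacatgg
SEX1 window: atatgcatgcacAATAAAaaattatcatat
TGG1, CP1, ATX1, F3H and RBCS3B had no match in their windows, which says only that these letters are absent from those 500 bases.

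Other transcripts of the same gene often share the chosen end or end near it. Where their windows overlap the chosen one, their counts can repeat reads that the rule used and are no separate readout. Of the 369 genes, 109 had other transcripts, 152 in all, of which 87 had counts identical to the chosen one and 104 met the rule themselves. Some overlapping windows held far more counts in every genotype. For AT4G32590, a transcript ending 27 bases upstream had 345 and 260 counts in cpsf30-1, 70 and 45 in nerd-1 and 39 and 155 in WT. For FSD1, one ending 118 bases upstream had 314 and 254 in cpsf30-1, 210 and 185 in nerd-1 and 186 and 339 in WT. For such genes the low counts outside cpsf30-1 depend on the end chosen. The windows of 10 such transcripts did not overlap the chosen window, and 2 of these 10 met the rule, those of UGT73B5 and AT3G32920. For AHP2, a phosphotransmitter of cytokinin signalling, the chosen window had 15 and 15 counts in cpsf30-1, 4 and 2 in nerd-1 and 4 and 0 in WT. The window past its second transcript, whose end lies upstream, had 853 and 609 counts in cpsf30-1, 527 and 516 in nerd-1 and 522 and 1105 in WT. The window past the second transcript of AT3G32920, 996 bases further downstream, had 24 and 25 counts in cpsf30-1, 2 and 2 in nerd-1 and 0 and 0 in WT, close to the 29 and 30 in cpsf30-1, 2 and 2 in nerd-1 and 0 and 0 in WT of the chosen one.

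Windows of other genes that lie on exons of the 369 genes were not used by the rule and read the body of those genes. There were 86 such windows, with at least 100 exonic bases and no overlap with a chosen window, and 72 passed the count filter. In cpsf30-1 against WT, 17 of the 72 were higher (23.6%) and 0 lower at an adjusted p under 0.05 in edgeR's quasi-likelihood test, where 7.6% of all tested windows were higher and 3.01% lower; 3 had an unadjusted p under 0.05 and a lower level, and DESeq2 called 1 lower. The median log2 fold change was 0.31, against -0.01 for all tested windows. All 17 were among the 67 tested windows whose own gene lies on the same strand as the gene they fall on, so that each is at once a window past the end of the gene just upstream. In cpsf30-1 against nerd-1, 13 were higher and 1 lower, where 7.57% of all tested windows were higher and 3.27% lower, and between nerd-1 and WT 0 were called, where 0.0563% of all tested windows were called, 0.00704% higher and 0.0493% lower; 4 had an unadjusted p under 0.05 and DESeq2 called 0. The 2 cpsf30-1 comparisons share the cpsf30-1 libraries.

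The window past PHT4;5, a phosphate transporter, lies on exons of AT5G20370 and had 119 and 151 counts in cpsf30-1, 4 and 4 in nerd-1 and 3 and 5 in WT. Its log2 fold change over WT was 5.10 ± 0.401 (SE, adjusted p = 0.00198). The gene it falls on has its own window at 18 and 18 counts in cpsf30-1 and 0 in each other library. PSAK, a photosystem I subunit, has its window on exons of AT1G30390 and had 249 and 256 counts in cpsf30-1, 25 and 12 in nerd-1 and 15 and 18 in WT, which gave 3.98 ± 0.344 on the same scale (SE, adjusted p = 0.00214). The window past AT1G30390 itself is one of those chosen by the rule. AER, an alkenal reductase, has its window on AT5G16960, with 422 and 399 counts in cpsf30-1, 13 and 9 in nerd-1 and 21 and 53 in WT (log2 fold change 3.58, adjusted p = 0.00207). That of AT4G19410 lies on the profilin-family gene AT4G19400, with 1028 and 911 counts in cpsf30-1, 129 and 119 in nerd-1 and 137 and 180 in WT (log2 fold change 2.66, adjusted p = 0.00207).

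Fewer of these windows were called with a library left out. Without cpsf30-1 replicate 1 the 17 became 5, without cpsf30-1 replicate 2 it was 7, without nerd-1 replicate 1 or 2 it was 7, without WT replicate 1 it was 8 and without WT replicate 2 it was 9. In each of these 6 fits all 4 windows named above stayed below an adjusted p of 0.05. With the nerd-1 libraries left out altogether, 10 were higher.

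Further downstream, the first window lying wholly beyond a chosen window and within 3000 bases of it was taken for each gene, 198 windows in all, of which 85 were tested. In cpsf30-1 against WT, 16 of the 85 (18.8%) were higher and 3 (3.53%) lower, where 7.6% of all tested windows were higher and 3.01% lower. The median log2 fold change was 0.31, against -0.01 for all tested windows. In cpsf30-1 against nerd-1, 14 (16.5%) were higher and 3 (3.53%) lower, where 7.57% and 3.27% of all tested windows were. Both shares of lower windows were close to those of all tested windows. Between nerd-1 and WT 0 were called by edgeR, where 0.0563% of all tested windows were, with 9 at an unadjusted p under 0.05 and 2 called by DESeq2. Of the 16, 5 were among the 29 tested windows of genes on the same strand as the chosen window's gene and 11 among the 56 on the other strand, where the window lies between converging genes.

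Beyond the far end of the IPK2a window by 2613 bases lay the window of RBOHA, an NADPH oxidase. It had 512 and 375 counts in cpsf30-1, 22 and 35 in nerd-1 and 13 and 31 in WT. Its log2 fold change over WT was 4.43 ± 0.372 (SE, adjusted p = 0.00207). Beyond the FAD5 window by 2332 bases lay the window of WSIP2, a TOPLESS-related corepressor. It had 90 and 60 counts in cpsf30-1, 11 and 12 in nerd-1 and 3 and 7 in WT, with 3.96 ± 0.504 (SE, adjusted p = 0.00588). Beyond the ABCG22 window by 1585 bases lay the window of NF-YA10, a subunit of the CCAAT-binding factor. It had 76 and 137 in cpsf30-1, 7 and 10 in nerd-1 and 4 and 3 in WT, with 4.91 ± 0.56 (SE, adjusted p = 0.00472). The fourth, past SGR2, a shoot gravitropism gene that encodes a phospholipase, had 304 and 391 in cpsf30-1, 43 and 47 in nerd-1 and 55 and 57 in WT, with 2.65 ± 0.26 (SE, adjusted p = 0.00316). All 4 genes lie on the strand opposite to the gene before the chosen window. A transcript of any gene that lies between, or a longer transcript of either gene, could supply the reads. Which of these did so was not tested.

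The 3 lower windows were those of AT1G79710, beyond ELF7, with 392 and 480 counts in cpsf30-1, 826 and 832 in nerd-1 and 813 and 1122 in WT (log2 fold change over WT -1.10, adjusted p = 0.00939), of AT2G39040 and of SAG101. AT2G39040 had 12 and 1 counts in cpsf30-1, 35 and 29 in nerd-1 and 63 and 152 in WT (-3.89, adjusted p = 0.019), and SAG101, an immune regulator, had 127 and 140 in cpsf30-1, 202 and 226 in nerd-1 and 207 and 392 in WT (-1.07, adjusted p = 0.0295). AT1G79710 lost its call without either cpsf30-1 or either nerd-1 library (adjusted p 0.0581 to 0.0763), AT2G39040 without either nerd-1 library or WT replicate 2 (0.0594 to 0.0671), SAG101 without any library except WT replicate 1 (0.0743 to 0.133), and, of the higher windows, WSIP2 without cpsf30-1 replicate 1 (0.0575). The count of 16 higher windows was 5 without either cpsf30-1 library, 9 without either nerd-1 library and 8 without either WT library. The count of 3 lower windows was 0 without either nerd-1 library and 1 without either cpsf30-1 library or WT replicate 2.

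**Figure D5:**
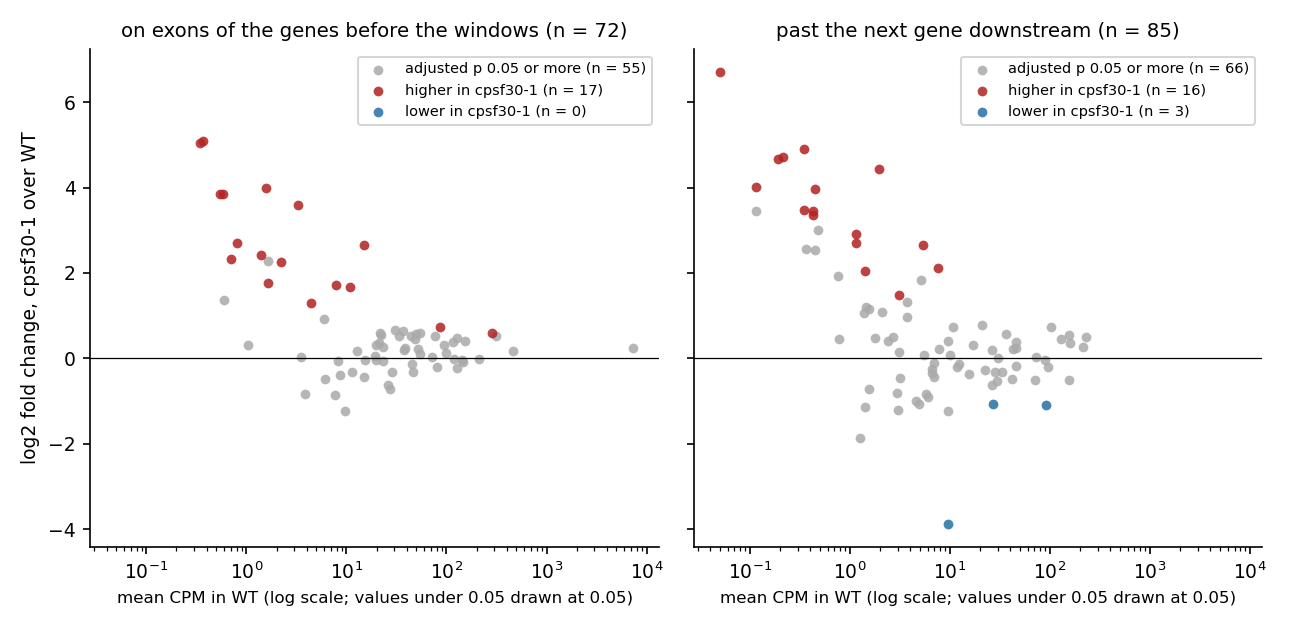
Log2 fold change in cpsf30-1 over WT (y axis) against the mean CPM in WT (x axis, logarithmic) for tested windows of other genes. The left panel shows windows on exons of the 369 genes (n = 72) and the right panel the first window wholly beyond a chosen window (n = 85). The right panel's heading, past the next gene, does not describe windows of genes on the other strand, which lie before that gene. Each point is a window, and colours mark an adjusted p under 0.05. Of the 72, 17 were higher and 0 lower, and of the 85, 16 were higher and 3 lower. The larger fold changes lay at low CPM in WT, which follows in part from the axes because the WT level is the denominator of the fold change.

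The lists of pathway genes placed 8 of the 369 windows, where 1.19% of all windows were chosen. These lists were drawn up with earlier results of these data known, and all windows include those that held no reads. The shares and calls given for each list are therefore descriptions, and no enrichment was tested. Of 18 phenylpropanoid and flavonoid genes 3 were among them (16.7%). PAL2, the phenylalanine ammonia-lyase at its entry, had 26 and 22 counts in cpsf30-1, 1 and 2 in nerd-1 and 1 and 1 in WT. TT5, the chalcone isomerase, had 40 and 34 in cpsf30-1, 4 and 0 in nerd-1 and 0 and 1 in WT. F3H, flavanone 3-hydroxylase, had 51 and 44 in cpsf30-1, 1 and 3 in nerd-1 and 0 and 0 in WT. The window of chalcone synthase (TT4), the enzyme before TT5, missed the ceiling by 1 count, with 109 and 119 in cpsf30-1, 4 and 5 in nerd-1 and 3 and 1 in WT. Beside the chosen windows, 1 of 8 tested windows of the list, that of TT4, was higher in cpsf30-1 than in WT and 0 lower, where 7.6% of all tested windows were higher and 3.01% lower. The median log2 fold change of these 8 was 1.17, against -0.01 over all tested windows.

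Of 26 genes of carbon fixation and photorespiration, 2 were chosen, RBCS3B and GLDP2. RBCS3B, a small subunit of Rubisco, had 39 and 37 counts in cpsf30-1, 0 and 0 in nerd-1 and 1 and 3 in WT. Its tandem neighbours differed by orders of magnitude: the window past RBCS2B had 114360 and 126394 counts in cpsf30-1, 90290 and 88658 in nerd-1 and 64555 and 113846 in WT (log2 fold change 0.52, adjusted p = 0.25). That of RBCS1B had 128556 and 155121 in cpsf30-1, 115214 and 110006 in nerd-1 and 74689 and 109849 in WT (0.68, adjusted p = 0.153). The 3 genes are near-identical copies in a row on chromosome 5, and the submitters' counting could split or share their reads, so the low counts past RBCS3B are uncertain. RBCS1A, on chromosome 1, had 4515 and 86 counts in cpsf30-1, 3 and 1 in nerd-1 and 2736 and 5 in WT, with 1 library high in both cpsf30-1 and WT.

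GLDP2, a P-protein of the glycine decarboxylase that photorespiration runs through, had 59 and 103 counts in cpsf30-1, 4 and 5 in nerd-1 and 2 and 1 in WT. Its paralogue GLDP1, not chosen, had 636 and 754 in cpsf30-1, 909 and 860 in nerd-1 and 977 and 1107 in WT. Its log2 fold change in cpsf30-1 over WT was -0.56 ± 0.182 (SE), which did not pass the test (adjusted p = 0.0949). Beside the 2 chosen windows, 8 of 22 tested windows of the list were higher in cpsf30-1 than in WT and 0 lower, where 7.6% of all tested windows were higher and 3.01% lower, and the median log2 fold change of the 22 was 1.14. The strongest was TKL1 (AT3G60750), a Calvin cycle transketolase, with 568 and 759 counts in cpsf30-1, 35 and 26 in nerd-1 and 13 and 21 in WT (log2 fold change 5.34 ± 0.295, adjusted p = 0.000657), named after its values were seen.

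Of 18 antioxidant enzyme genes, 3 were chosen (16.7%). FSD1, the iron superoxide dismutase, had 86 and 40 counts in cpsf30-1, 0 and 0 in nerd-1 and 1 and 2 in WT, in a window that holds AT4G25090 on the same strand. DHAR2, a dehydroascorbate reductase, had 38 and 30 in cpsf30-1, 0 and 0 in nerd-1 and 5 and 0 in WT, and its window overlaps by 411 bases that of AT1G75260, also chosen. APX3, an ascorbate peroxidase, had 10 and 15 in cpsf30-1, 6 and 3 in nerd-1 and 0 and 1 in WT, and did not pass the filter. Beside the chosen windows, 3 of 11 tested windows of the list were higher in cpsf30-1 than in WT and 0 lower, where 7.6% of all tested windows were higher and 3.01% lower, and the median log2 fold change of the 11 was 0.31.

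None of the 48 genes of the light reactions, the 19 of chlorophyll and heme synthesis or the 29 of cleavage and polyadenylation was chosen. Their windows were not without calls: 14 of 44 tested light-reaction windows were higher in cpsf30-1 than in WT and 0 lower, 3 of 16 in chlorophyll and heme synthesis were higher and 2 lower, and 1 of 18 in cleavage and polyadenylation was higher and 0 lower, where 7.6% of all tested windows were higher and 3.01% lower. The last of these counts is close to the share of all tested windows. The median log2 fold changes were 0.45, 0.27 and -0.05, against -0.01 over all. In the polyadenylation list the call was CSTF50, a cleavage stimulation factor subunit, with 64 and 76 counts in cpsf30-1, 9 and 14 in nerd-1 and 9 and 10 in WT (log2 fold change 2.91 ± 0.453, adjusted p = 0.0107), a call lost without cpsf30-1 replicate 1 (adjusted p = 0.0651) or replicate 2 (0.0868). Where edgeR called 0 windows of a list lower, an unadjusted p under 0.05 with a lower level was found for 3 windows in cleavage and polyadenylation, 2 in the light reactions, 2 in carbon fixation and photorespiration, and 0 in the phenylpropanoid and antioxidant lists. DESeq2 called 1, 2, 0, 0 and 0 windows of these lists lower in the same order.

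The edges of the rule cut through a continuum. At a sum of 12 counts over nerd-1 and WT, just inside, lay 48 windows, among them UGT75B1, IPK2a and GLDP2; at 13, just outside, lay 43, led by AT3G21660 with 219 and 135 counts in cpsf30-1, 0 and 5 in nerd-1 and 4 and 4 in WT, by TT4, and by ATHM2, a thioredoxin, with 84 and 58 in cpsf30-1, 3 and 5 in nerd-1 and 4 and 1 in WT. With the lower cpsf30-1 library at 10 counts lay 46 windows, such as AT4G38150 with 10 and 115, CAT9 with 10 and 40 and the transcription factor WRKY70 with 10 and 40 in cpsf30-1. With it at 9 lay 55, such as AT1G14060 with 9 and 87, FKBP13 with 9 and 28 and PnsB5, a subunit of the chloroplast NADH dehydrogenase-like complex, with 27 and 9 in cpsf30-1.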

How the data were processed

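Per the submitters' processing notes, reads were processed with Bowtie2 2.3.4, TopHat2 2.0.7, Cufflinks 2.2.1 and Cuffdiff on the TAIR10 build; their roles, the counting tool and the strand setting have no source here. Paired reads of 125 bases, 37 to 53 M per library, are stated in the labels' protocols. The authors deposited a raw read count for the 500 bases past the end of each transcript, for 39087 transcripts and 6 libraries.

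From these counts, 1 transcript per gene (the lowest isoform number) was kept. Windows were placed with the RefSeq TAIR10.1 gene models, which gave a position to 38529 transcripts. Counts were scaled by TMM (trimmed mean of M-values) and tested with the quasi-likelihood F-test of edgeR 4.0.16 in R 4.3.3, all 6 libraries, 1 mean per genotype, after filterByExpr with a minimum count of 10; 14209 windows were tested and p-values adjusted by Benjamini-Hochberg over them, with 0.05 as threshold. SE is the log2 fold change divided by the root of F. The method was tested on simulated data. DESeq2 1.42.0 and other settings were alternatives.

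The windows and gene lists were chosen with earlier results of these data known. Named were the highest 12, 4 and 4 windows by mean cpsf30-1 CPM with no other gene, an other-strand gene and a same-strand gene, the highest 4 others with no count in nerd-1 and WT, up to 3 per list, the 3 windows nearest each limit, and, of other windows, the 4 higher and 4 lower with the smallest adjusted p; others are marked as named after their values were seen.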

Additional observations from a re-analysis of the deposited data

How the results depend on the processing

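No result named above reversed under any alternative. The 369 windows became 168 and 803 with ceilings of 6 and 24 counts, 945 and 132 with minimums of 5 and 20 counts, and 365 to 755 with 1 library left out; 307 of them stayed with counts scaled to a common total and 361 with the transcript ending farthest downstream. For cpsf30-1 against WT over all windows, the 1080 higher and 428 lower calls became 1811 and 1041 with no filter on low counts; lower calls were 672 with DESeq2 and 156 with the 4 libraries compared alone. With 1 library left out, higher calls ranged from 255 to 552 and lower from 70 to 429. Windows on exons of the 369 genes gave 10 higher calls with the 4 libraries compared alone and 5 to 9 with 1 library left out, and 1 lower with DESeq2 and with no filter on low counts. Windows past the next gene gave 5 to 9 higher and 0 to 3 lower with 1 library left out. With classes drawn from 1000 bases, 34.7% of the chosen windows held no other gene, a share not set beside that of all windows. On the transcript strand AATAAA lay 40 to 10 bases before the end for 5.19% of the chosen windows and 6.38% of all.

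The replicate numbers do not pair the libraries: the replicate differences of cpsf30-1 and WT correlated at -0.31, those of cpsf30-1 and nerd-1 at -0.00332 and those of nerd-1 and WT at -0.00226. With the replicate number as a block, 516 windows were higher and 112 lower in cpsf30-1 than in WT. On exons of the 369 genes 8 were higher, and among the first windows beyond the chosen ones 10 were higher and 1 lower. With crossed numbers, chosen after seeing the data, 1410 were higher and 761 lower. The cause of these differences was not tested. At a median of 20 and 19 counts in cpsf30-1, counting error alone limits what single windows can show.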
